A study of Cricetiscus sungorus with 24 samples.

Results

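The prolactin receptor gene Prlr and the genes that carry, answer and limit its signal were described in the kidney of the Djungarian hamster. There were 10 genes out of 15960 gene symbols listed in 2 tables of read counts. They were chosen by name, with earlier results of these data known. The list held the receptors Prlr and Ghr, the kinases Jak1 and Jak2, and the transcription factors Stat3, Stat5a and Stat5b. It also held the feedback inhibitors Cish, Socs2 and Socs3. All 10 had a row in experiment 2 and 7 had a row in experiment 1, in which Jak1, Stat5a and Cish had none. Both tables list only transcripts with a count in at least 1 library, and neither has a row for Prl, the gene of prolactin itself.

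Experiment 2 (12 females) followed transfer from long photoperiod (LP) to short photoperiod (SP, 8 h of light) for 8 weeks, after which 6 hamsters received vehicle (SAL, dimethyl sulfoxide with saline) and 6 received 18 µg of ovine prolactin (PRL) in the same vehicle, by daily intraperitoneal injection on 3 days. Injections were given in the middle of the light phase and kidneys were taken 2 to 4 h after lights on. Experiment 1 (12 males) compared 3 groups of 4 hamsters, namely LP (16 h of light) and SP lasting 12 weeks (SP12wk) or 28 weeks (SP28wk). All animals were adults without a genetic modification named in the sources. Sex and flow cell differed between the experiments, so that neither can be told apart from the experiment. Each library came from the kidney of 1 animal.

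Prolactin acts through a receptor of the cytokine class that has no enzyme activity of its own. Hormone binding activates the receptor-bound kinase JAK2, which phosphorylates STAT5A and STAT5B, and these move to the nucleus and switch on target genes. Cish and Socs2 are classical STAT5 targets whose proteins dampen the same pathway, and Socs3 is the feedback inhibitor best known from STAT3 signalling. The growth hormone receptor, encoded by Ghr, uses JAK2 and STAT5 in the same way. In rodent kidney, prolactin binding has been located to proximal tubule cells.

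The deposited values are estimated read counts per transcript, and how a read was shared among transcripts of its gene is not clear from the sources, since 70.9% of the transcripts in experiment 2 and 83.9% in experiment 1 had the same counts as another. For each gene the transcript row with the highest total was therefore used. Reads may include copies of 1 molecule if the cDNA was amplified, which the sources do not settle. With 1 transcript per gene, experiment 2 held 174053 to 756523 reads per library and experiment 1 held 15687 to 57585. Levels are given in CPM, the reads of a gene per 1000000 reads of this total, and are compared between libraries and not between genes. A single read was worth 1.32 to 5.75 CPM in experiment 2 and 17.4 to 63.7 CPM in experiment 1, and a library without a read could have held up to 3 reads, or 3.97 to 17.2 CPM and 52.1 to 191 CPM. Such limits reflect counting error and nothing else. The 10 genes had 495 reads in experiment 2 and 51 in experiment 1. The kidney label was checked on markers, with 7 of 8 proximal tubule genes listed and summed to 1149 to 2316 CPM in the 12 libraries of experiment 2 and to 2134 to 4328 CPM in those of experiment 1. Of the 3 adrenal markers, Cyp11b1 and Star had no row. Cyp11a1 had 5 reads in SAL (0 to 4.57 CPM) and 8 in PRL (0 to 17.2 CPM) in experiment 2, and no row in experiment 1.

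Comparison of PRL with SAL asked whether injected prolactin altered the mRNA of its own receptor and pathway in the SP kidney. Reads of Prlr numbered 6 in SAL against 20 in PRL and those of Socs3 11 against 3, the 2 largest fold changes of the list and in opposite directions. Neither passed the test across all genes, and the other genes differed by less. With edgeR's quasi-likelihood test and Benjamini-Hochberg adjustment over 10696 genes, 0 of the 9 genes with enough counts were called, against a background of 0% of all genes tested. At an unadjusted p under 0.05 there was 1, Socs3, which was lower in PRL, against 4.88% of all genes (2.54% higher and 2.34% lower in PRL). DESeq2 called 0 of the 9, with 0 at an unadjusted p under 0.05. Prlr had an unadjusted p of 0.052 (edgeR). Over all settings run, the unadjusted p ran from 0.0061 to 0.27 for Prlr and from 0.020 to 0.19 for Socs3 (edgeR at each end). Which of the 2 lay under 0.05 thus depended on the setting. Stat5a had reads in 4 of 12 libraries on the row used and was not tested, because a count in 6 was required. The log2 fold change was above 0 for 5 of the 9 genes, against 52.6% of all genes, and its median was 0.09, against 0.03 over all genes.

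**Figure D1:**
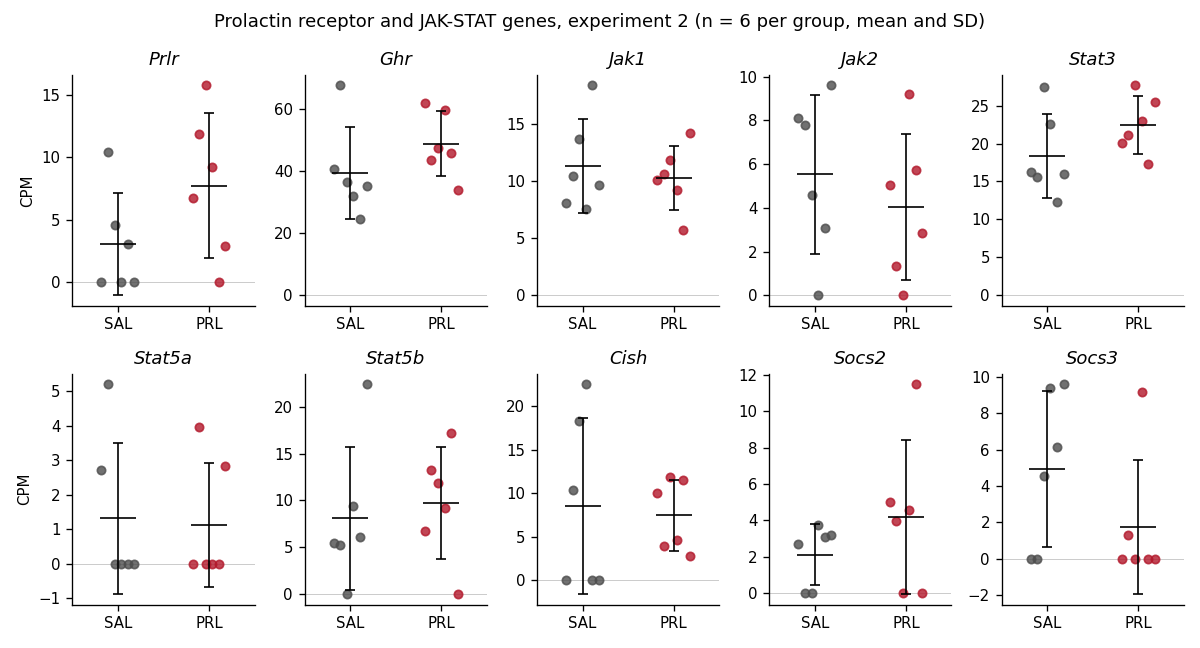
CPM (vertical axes, each gene on its own scale) of the 10 genes in the SAL and PRL libraries of experiment 2, with 1 point per animal and the mean ± SD as a bar (n = 6 per group). The points of SAL and PRL overlap in each of the 10 genes, and Prlr and Socs3 have their higher means in opposite groups.

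Of the receptors, Prlr was read as transcript NM_011169.5, with 0, 4, 1, 0, 1 and 0 reads in SAL replicates 1 to 6 and 4, 9, 4, 2, 0 and 1 reads in PRL replicates 1 to 6. A read was thus present in 3 of 6 SAL and 5 of 6 PRL animals, and the highest SAL library (10.4 CPM) lay above 4 of the 6 PRL libraries. SAL averaged 3.01 ± 4.11 CPM (SD, n = 6) and PRL averaged 7.74 ± 5.83 CPM. On the log2 scale PRL was higher by 1.42 ± 0.71 (SE) with a 95% interval from −0.013 to 2.85 (edgeR, adjusted p = 0.999). The interval leaves room for no difference as well as for a large one.

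SAL replicate 2 held 4 of the 6 Prlr reads of its group and PRL replicate 2 held 9 of the 20 of the other, the latter being the most deeply sequenced library. Without SAL replicate 2 the log2 fold change of Prlr was 2.48 (edgeR, adjusted p = 0.538), and over all alternatives the adjusted p lay between this value and 1.00. Adipose markers, which come from a tissue that can adhere to the kidney and that also carries both receptors, were listed for 4 of 4 genes and summed to 45.1 to 331 CPM in SAL (median 100) and 114 to 402 CPM in PRL (median 219). PRL replicate 5, with the highest adipose sum, had no Prlr read, but was the shallowest library of experiment 2, where 1 read was worth 5.75 CPM. SAL replicate 4, with the lowest sum, had no Prlr read either, and SAL replicate 5, with the highest sum in SAL, had 1. PRL replicate 2, with the lowest sum in PRL, had 9. Of the adipose markers 3 were tested, and edgeR called 0. The log2 fold change of PRL over SAL was above 0 for all 3, against 52.6% of all genes, with a median of 0.66. The part of these markers in the Prlr values was not tested. In bulk tissue, a change in the number of cells that hold a transcript and a change in its amount per cell cannot be told apart.

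Reads of Prlr fell on 11 listed mouse transcripts, and the rows did not carry the same reads. NM_011169.5 held 26 reads, a further 4 rows held 19 each, XM_030248425.1 held 16, and the remaining 5 rows held 9 or 10. PRL replicate 4 had its 2 reads on NM_011169.5 and XM_030248425.1 and on no other row. On every row there were more reads in PRL than in SAL, from 7 against 2 to 20 against 6, but the rows share reads and are not separate measurements. With the counts of all 11 rows added, the log2 fold change was 1.18 and was not called.

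**Figure D2:**
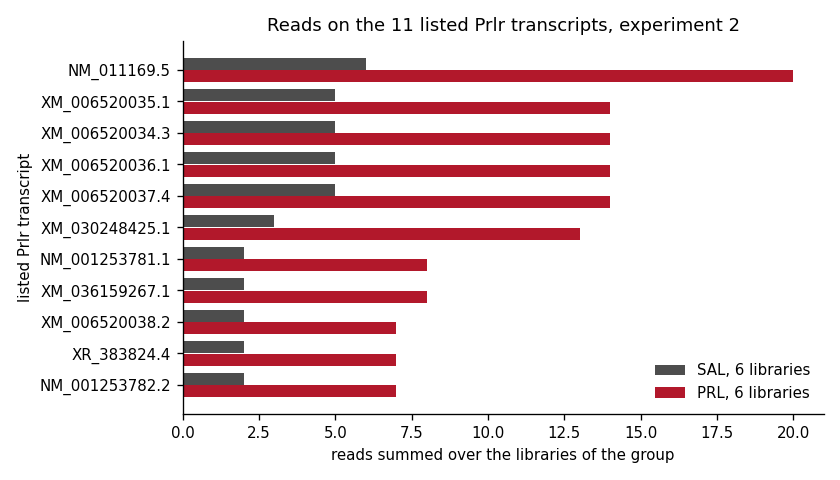
Reads (horizontal axis) on each of the 11 listed Prlr transcripts (vertical axis), summed over the 6 SAL and the 6 PRL libraries. NM_011169.5 has the most reads in both groups (6 and 20), and the 3 rows with fewest have 2 and 7.

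Ghr, the receptor of growth hormone and the best measured gene of the list, had a read in each of the 12 libraries, on NM_010284.3. SAL replicates 1 to 6 held 15, 26, 8, 17, 8 and 11 reads and PRL replicates 37, 33, 12, 13, 8 and 12. In CPM the SAL animals lay between 24.5 and 67.6 (median 35.9) and the PRL animals between 34.0 and 62.0 (median 46.7), with the highest value of all in SAL. SAL averaged 39.4 ± 14.8 CPM and PRL averaged 48.8 ± 10.5 CPM, so that the means lay closer than the animals of a group. Its log2 fold change was 0.24 ± 0.28 (95% interval −0.31 to 0.80, edgeR, adjusted p = 0.999), the narrowest interval of the 9.

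The kinases did not separate the groups. Jak1, which serves interferon and interleukin-6 type receptors, had 3, 4, 3, 4, 6 and 3 reads in SAL and 6, 8, 3, 2, 1 and 5 in PRL. These gave 11.3 ± 4.09 CPM and 10.3 ± 2.81 CPM, nearly the same level. The difference was −0.07 ± 0.44 on the log2 scale (edgeR, adjusted p = 0.999), and it was above 0 (0.10) without SAL replicate 5. Jak2, the kinase that the prolactin receptor itself uses, had 3, 3, 1, 0, 1 and 3 reads in SAL and 3, 1, 0, 2, 1 and 1 in PRL. Its log2 fold change was −0.59 ± 0.70 with an interval from −2.01 to 0.84 (edgeR, adjusted p = 0.999), so that only very large changes could have been seen at this depth. Jak2 was read on XM_017318068.3, with 19 reads, while 2 of its 8 listed rows had 1 read each.

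Among the transcription factors, Stat3 had 6, 6, 6, 12, 4 and 5 reads in SAL and 12, 16, 7, 5, 3 and 9 in PRL. In CPM it lay between 12.2 and 27.4 in SAL and between 17.2 and 27.7 in PRL, with the top of both ranges at the same level. SAL averaged 18.3 ± 5.56 CPM and PRL averaged 22.4 ± 3.78 CPM, and the log2 fold change 0.24 ± 0.33 had an interval from −0.43 to 0.92 (edgeR, adjusted p = 0.999).

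Stat5b, a main transducer of prolactin and growth hormone, had 2, 2, 0, 5, 2 and 7 reads in SAL and 4, 10, 3, 2, 3 and 0 in PRL. Both the highest CPM value (22.4, SAL replicate 6) and a value of 0 occurred in SAL, and a value of 0 also in PRL. Its log2 fold change was 0.09 ± 0.55 (95% interval −1.03 to 1.21, edgeR, adjusted p = 0.999), and it was below 0 in 6 of 12 fits with a library left out. Stat5a, its close relative, had 3 reads in SAL (replicates 1 and 2) and 4 in PRL (replicates 2 and 6) on NM_011488.3, the row used. The other 8 libraries had none on this row, and NM_001164062.1 held 1 read, in PRL replicate 3. Because the 2 genes are near-identical paralogs and hamster reads were placed on mouse transcripts, the split of reads between them is uncertain.

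The feedback inhibitors, the genes that STAT activity induces most directly, gave no common direction at the time of sampling. The sources do not state the interval from the last injection to sampling, and no other time was sampled. Cish had 0, 4, 4, 12, 0 and 0 reads in SAL and 6, 3, 3, 1, 2 and 1 in PRL. The SAL animals thus fell apart into 3 without a read and 3 between 10.4 and 22.6 CPM, whereas the PRL animals lay together between 2.84 and 11.9 CPM. SAL averaged 8.54 ± 10.1 CPM and PRL averaged 7.47 ± 4.10 CPM (log2 fold change −0.43 ± 0.63, edgeR, adjusted p = 0.999). SAL replicate 4 held 12 of the 20 SAL reads, and without it the log2 fold change was 0.41, in the other direction.

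Socs2 had 1, 0, 0, 2, 1 and 1 reads in SAL and 3, 3, 0, 1, 2 and 0 in PRL. A read was found in 4 animals of each group, and the means were 2.12 ± 1.68 CPM and 4.18 ± 4.23 CPM. This gave a log2 fold change of 0.60 ± 0.77 (edgeR, adjusted p = 0.999), smaller than its SE.

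Socs3 had 0, 0, 1, 5, 2 and 3 reads in SAL and 0, 1, 0, 2, 0 and 0 in PRL. It was read in 4 SAL and 2 PRL animals, and PRL replicate 4 (9.20 CPM) lay as high as the upper SAL libraries. SAL averaged 4.95 ± 4.29 CPM and PRL averaged 1.75 ± 3.68 CPM. Its log2 fold change was −1.78 ± 0.88 with an interval from −3.56 to −0.0047 (edgeR, adjusted p = 0.999). Socs3 is an immediate early gene in many tissues. Of 5 immediate early markers, 3 had fewer reads in PRL than in SAL (Egr1 31 and 11, Junb 19 and 12, Fos 5 and 3 reads in SAL and PRL) and 2 had more (Jun 52 and 59, Ier2 6 and 9), and edgeR called 0 of them. At an unadjusted p under 0.05 (edgeR) there was 1 of the 5, lower in PRL, against 4.88% of all genes. The median log2 fold change of the 5 was −0.76, with 2 of them above 0. The list of 5 summed to 18.3 to 91.9 CPM in SAL (median 42.8) and 14.2 to 87.0 CPM in PRL (median 41.9). The part of these markers in the Socs3 and Cish values was not tested.

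**Figure D3:**
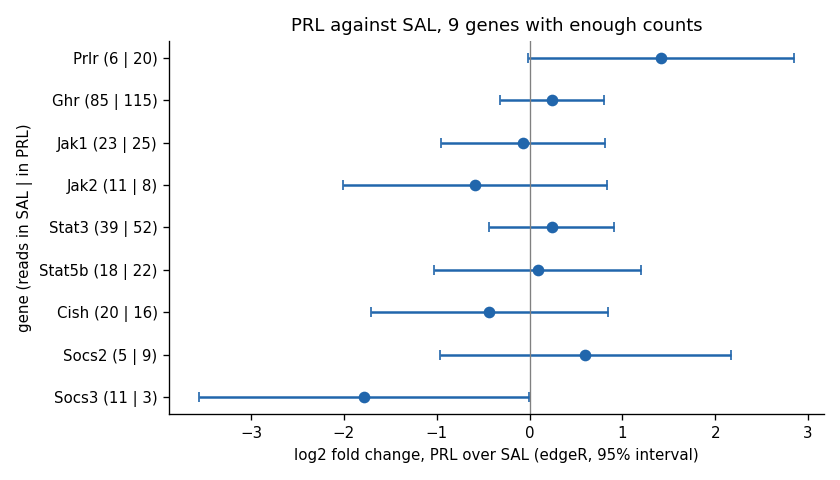
Log2 fold change of PRL over SAL (horizontal axis, edgeR) with its 95% interval for the 9 genes tested (vertical axis, with reads in SAL and in PRL). The intervals of Prlr (−0.013 to 2.85) and Socs3 (−3.56 to −0.0047) end next to 0 on opposite sides, and that of Ghr is the narrowest.

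The rest of the pathway was described with 57 further genes, of which 41 had enough counts. edgeR called 0 of them in either direction, and 0 had an unadjusted p under 0.05, against 4.88% of all genes. The log2 fold change was above 0 for 24 of the 41 and had a median of 0.11. By role, 7 of 12 adaptors and other kinases, 6 of 12 other SOCS, phosphatase and PIAS genes, and 7 of 12 STAT target genes were above 0. Igf1, the growth factor that growth hormone induces through STAT5 and the only ligand of the list with a row, was named after its values were seen. It had 9 reads in SAL and 11 in PRL, with 3.96 ± 2.79 CPM and 5.88 ± 3.93 CPM (log2 fold change 0.15 ± 0.67, edgeR, adjusted p = 0.999).

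Taken per library rather than per gene, the 10 genes together made up 76.5 to 133 CPM in SAL (median 106) and 85.1 to 138 CPM in PRL (median 120). These ranges overlapped almost entirely. For none of the 10 genes were the SAL and PRL libraries separated, and 0.14% of all genes tested showed such a separation.

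In experiment 1, the photoperiod groups were compared to ask whether the receptor and its pathway follow the seasonal cycle. The depth was far lower than in experiment 2, and reads of the list came to 18 in LP, 10 in SP12wk and 23 in SP28wk. Prlr was found in a single read, in SP28wk replicate 3, on XM_006520037.4. Jak2 also had a single read, in SP28wk replicate 1, and Socs3 a single read, in SP28wk replicate 4. No seasonal comparison of these 3 genes was possible at this depth. The remaining 4 genes, Ghr, Stat3, Stat5b and Socs2, had a count in at least 4 of 12 libraries and were tested.

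edgeR called 0 of these 4 genes in SP12wk against LP, where 0.0197% of 5086 genes were called. It called 0 of 4 in SP28wk against SP12wk (background 0.138%) and 0 of 4 in SP28wk against LP (background 0.216%). At an unadjusted p under 0.05 there were also 0 of 4 in each, where the background was 7.26% (4.56% higher and 2.69% lower in SP12wk), 6.1% (4.6% higher and 1.49% lower in SP28wk) and 8.57% (6.61% and 1.97%). The log2 fold change was above 0 for 0, 3 and 1 of the 4, against 47.3%, 58.2% and 58.5% of all genes. For none of the 4 were the groups separated, where 2.67%, 3.38% and 3.3% of all genes were. DESeq2 gave 0 calls and 0 unadjusted p under 0.05 for the 4 genes in the 3 comparisons. With SP28wk the median log2 fold change of all genes depended on the scaling, being 0.16 against SP12wk and 0.18 against LP with TMM factors, and 0.0038 and −0.029 with DESeq2 size factors in edgeR. Values of single genes are to be read relative to these medians.

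**Figure D4:**
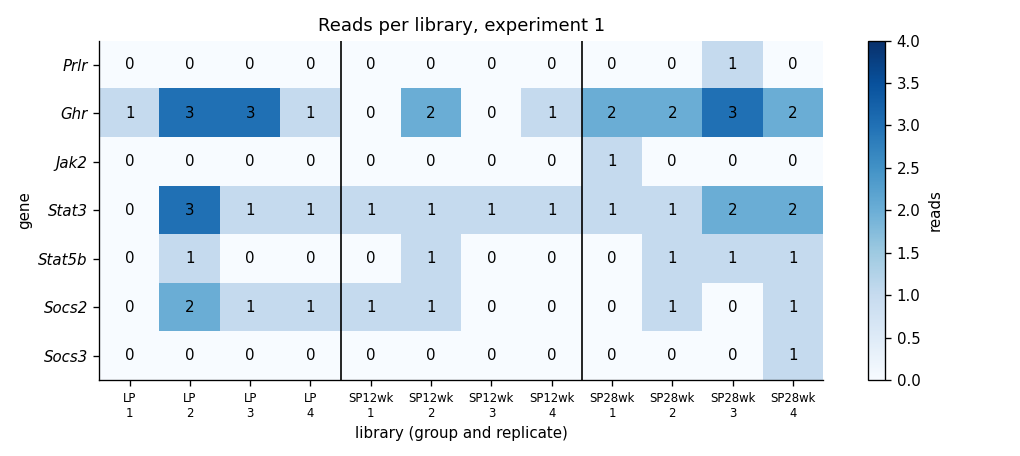
Reads (printed and shaded) of the 7 genes with a row in experiment 1 (vertical axis) in each of the 12 libraries (horizontal axis, by group and replicate). Ghr and Stat3 have reads in 10 and 11 libraries, and Prlr, Jak2 and Socs3 have 1 read each, all in SP28wk.

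Ghr had 1, 3, 3 and 1 reads in LP replicates 1 to 4, 0, 2, 0 and 1 in SP12wk and 2, 2, 3 and 2 in SP28wk. It was thus read in 4 of 4 LP, 2 of 4 SP12wk and 4 of 4 SP28wk animals, and SP12wk replicate 2 (127 CPM) lay above each SP28wk library. The means were 105 ± 71.9 CPM (SD, n = 4), 38.9 ± 60.5 CPM and 70.6 ± 24.1 CPM. SP12wk differed from LP by −1.28 ± 1.02 on the log2 scale (95% interval −3.29 to 0.73, edgeR, adjusted p = 0.798). SP28wk differed from SP12wk by 1.09 ± 1.01 (adjusted p = 0.980) and from LP by −0.19 ± 0.84 (adjusted p = 0.961). The SP12wk library of replicate 2 held 2 of the 3 reads of its group, and without it the change from LP was −2.33.

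Stat3 had 0, 3, 1 and 1 reads in LP, 1 in each of the 4 SP12wk libraries and 1, 1, 2 and 2 in SP28wk. LP libraries lay between 0 and 168 CPM, SP12wk libraries between 28.3 and 63.7 CPM and SP28wk libraries between 34.7 and 57.1 CPM, with the highest value in LP replicate 2. SP12wk differed from LP by −0.27 ± 1.08 on the log2 scale (edgeR, adjusted p = 0.977) and turned to 0.51 without LP replicate 2. SP28wk differed from SP12wk by 0.16 ± 1.04 (adjusted p = 0.980) and from LP by −0.11 ± 1.00 (adjusted p = 0.968), the latter turning to 0.63 without LP replicate 2.

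Stat5b had 1 read in LP, 1 in SP12wk and 3 in SP28wk, each in a library of its own, and no difference was detectable at this depth. Its single reads in LP and SP12wk were both in the libraries of replicate 2.

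Socs2 had 0, 2, 1 and 1 reads in LP, 1, 1, 0 and 0 in SP12wk and 0, 1, 0 and 1 in SP28wk. The means were 51.6 ± 46.6 CPM, 26.2 ± 31.6 CPM and 14.7 ± 19.6 CPM, and the groups overlapped. SP12wk differed from LP by −0.85 ± 1.18 on the log2 scale (edgeR, adjusted p = 0.914), and SP28wk differed from SP12wk by −0.32 ± 1.29 (adjusted p = 0.980) and from LP by −1.17 ± 1.15 (adjusted p = 0.881). With the counts of its 9 listed rows added, SP28wk against SP12wk turned to 1.90 and SP12wk against LP went to −2.82, and neither was called. Each of the rows not used held 3 reads, 2 in LP replicate 2 and 1 in SP28wk replicate 2. The rows carry the same counts there and are not separate measurements.

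LP replicate 2 held 9 of the 18 LP reads of the list, and SP12wk replicate 2 held 5 of the 10 SP12wk reads. In LP replicate 2 the total over all transcripts was 3.31 times that with 1 transcript per gene, against 2.15 to 2.90 in the other 11 libraries. The part of this difference in the values of Ghr, Stat3, Stat5b and Socs2 was not tested.

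Of the 57 further pathway genes, 23 had enough counts in experiment 1, and edgeR called 0 of them in each comparison. In SP12wk against LP, 4 of the 23 had an unadjusted p under 0.05, against 7.26% of all genes. That count was 1 of 23 with DESeq2, 2 of 23 with the replicate block, 4 of 23 with DESeq2 size factors in edgeR and 5 of 23 with added counts. It was 2 of 7 with the stricter filter and 5 of 38 without a filter. With a library left out it lay between 1 of 21 (without SP12wk replicate 4) and 5 of 21 (without SP12wk replicate 3). The count was 2 without SP12wk replicate 1 or 2. Lifr, the receptor of leukaemia inhibitory factor, which signals through JAK1 and STAT3, had 3 reads in each of the 4 LP libraries and 1, 1, 0 and 0 in SP12wk. These libraries did not overlap, with 148 ± 24.4 CPM in LP and 26.2 ± 31.6 CPM in SP12wk (log2 fold change −2.34 ± 1.02, edgeR, adjusted p = 0.603). In SP28wk Lifr had 0, 2, 2 and 4 reads and 52.4 ± 36.5 CPM, again without overlap with LP. Over all genes tested, 2.67% did not overlap between SP12wk and LP and 3.3% between SP28wk and LP.

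The other 3 genes rested on fewer reads. Bcl6, a transcriptional repressor and STAT target, had 2, 3, 2 and 1 reads in LP and 0, 0, 1 and 0 in SP12wk (log2 fold change −2.54 ± 1.24, edgeR, adjusted p = 0.641). Ptpn2, a phosphatase that inactivates JAK and STAT proteins, had 4 reads in LP and 0 in SP12wk (edgeR, adjusted p = 0.603). Irf1, a transcription factor, had 0 reads in LP and 5 in SP12wk, of which 3 were in replicate 2 (edgeR, adjusted p = 0.603). In SP28wk against SP12wk only Stam2, an adaptor of JAK signalling, was under 0.05 unadjusted (background 6.1%), with 0 and 4 reads (edgeR, adjusted p = 0.789), and with DESeq2 there was 0. In SP28wk against LP there was 0 (background 8.57%). In experiment 2, Lifr averaged 25.6 ± 10.5 CPM (n = 6) under SAL and 25.9 ± 9.67 CPM under PRL (edgeR, adjusted p = 0.999).

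To show what the depth of experiment 1 could resolve, the pooled level of each gene over the 12 libraries of experiment 2 was multiplied by the reads of experiment 1. The tables were made separately, so that this is a scale for reading and no comparison. The row used was also chosen in each experiment apart, and for Prlr, Ghr, Jak2 and Stat3 it was a different transcript in each. Prlr would have had 1.85 reads and had 1, Jak1 would have had 3.42 and had no row, and Cish would have had 2.57 and had no row. For Stat5a the figure was 0.499. The largest departures on the other side were Socs2, with 8 reads against 1.00, and Stat3, with 15 against 6.48. Ghr had 20 against 14.3.

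**Figure D5:**
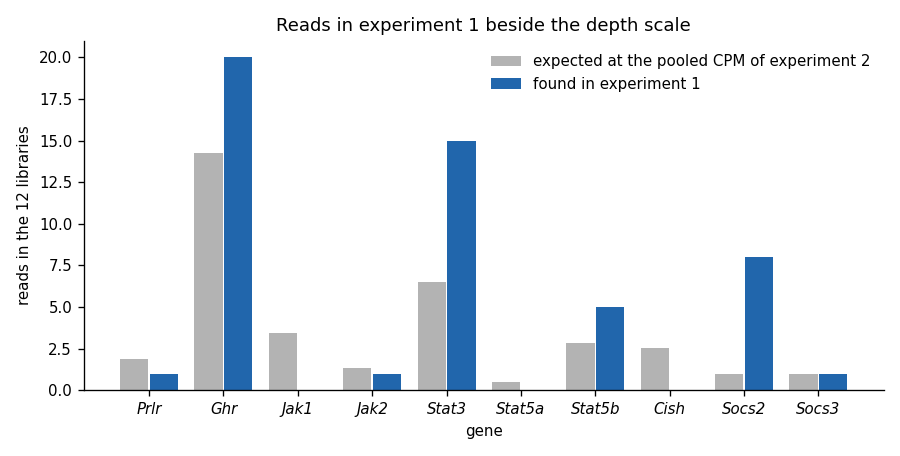
Reads (vertical axis) of each of the 10 genes over the 12 libraries of experiment 1, beside the number that the pooled CPM of experiment 2 would give at the same depth. For 7 of the 10 genes that number is under 3, and Jak1, Stat5a and Cish have no row in experiment 1.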

How the data were processed

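RNA of 24 kidneys was sequenced by nanopore, 12 libraries per flow cell. The authors basecalled with Guppy, trimmed with Porechop, filtered with Filtlong and aligned to the mouse genome with Minimap2. The submitters' processing notes name minimap2 and Salmon. The deposited values are estimated counts of reads on mouse RefSeq transcripts without scaling for depth. Of 859080 values in experiment 2 and 439944 in experiment 1, 3447 and 2868 were not whole. The methods name a direct cDNA kit and the labels a PCR-cDNA kit with the same catalogue numbers.

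For each gene symbol the transcript with the highest total in its table was taken, with ties broken by identifier, and counts were rounded. edgeR 4.0.16 (R 4.3.3) was fitted with TMM factors and glmQLFTest, 1 model per experiment without covariates, on genes counted in 6 or more of 12 libraries (experiment 2) or 4 or more of 12 (experiment 1), with Benjamini-Hochberg adjustment over all genes tested and a threshold of 0.05. SE was the size of the log2 fold change divided by the square root of F. The code was tested on simulated data. Alternatives were DESeq2 1.42.0, its size factors in edgeR, no filter, a stricter filter (12 and 8 libraries), counts added over transcripts, a replicate block, and each library left out in turn.

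The members and lists were chosen with earlier results of these data known. Named genes were the 10 members, Prl, and up to 5 pathway genes per direction and comparison with the smallest unadjusted p under 0.05. Igf1 and the immediate early markers were named outside this rule, after their values were seen. Genes of like pattern to Prlr were to be named from 120 reads of Prlr on, which it did not reach. The labels do not say that samples came from separate litters or cages. The p-values weigh a group difference against the spread among these libraries, which includes counting noise. Libraries of a group differed beyond the noise of sampling reads (chi-square over its degrees of freedom 1.89 or more). No sequence is shown, because no reference was used here.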

Additional observations from a re-analysis of the deposited data

Results flagged for a closer look

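A library far from the others of its group (Dixon's criterion at 95%) was found in 8 of the 35 gene and group combinations with any read. The usual rate of about 1 in 20 does not apply to counts this low. A group of 4 with reads in only 1 library is always flagged. In 5 of the 8 the flag was the single read of a group of 4: Prlr in SP28wk replicate 3 (28.6 CPM), Jak2 in SP28wk replicate 1 (39.5 CPM), Stat5b in LP replicate 2 (56.1 CPM) and in SP12wk replicate 2 (63.7 CPM), and Socs3 in SP28wk replicate 4 (17.4 CPM). Ghr was high in SAL replicate 2 (67.6 CPM, 26 reads) and low in SP28wk replicate 4 (34.7 CPM, 2 reads). Socs3 was high in PRL replicate 4 (9.20 CPM), with 2 of the 3 reads of PRL.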

How the results depend on the processing

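The number of the 10 members and of the 57 pathway genes called stayed at 0 in every comparison under each alternative run, and 28 of 360 log2 fold changes of members changed sign. Over all genes, 0 were called in PRL against SAL (522 at an unadjusted p under 0.05, and 0 by DESeq2), but 92 without a filter, 1 with counts added over transcripts, 52 with the replicate block, and 0 to 44 with a library left out (44 without PRL replicate 4, 26 without PRL replicate 3, 27 without SAL replicate 6 and 1 without SAL replicate 5). In SP12wk against LP 1 gene was called, and 0 with DESeq2, without a filter, with the stricter filter, with added counts and with the block, and 0 to 9 with a library left out (9 without SP12wk replicate 1, 7 without LP replicate 4, 4 without SP12wk replicate 2, 1 without SP28wk replicate 1 or 3, and 0 without each of the others). In SP28wk against SP12wk 7 were called, and 2 with DESeq2, 2 with the stricter filter, 0 with added counts and 2 to 11 with a library left out (11 without LP replicate 2, 4 without SP12wk replicate 2, and 2 without SP12wk replicate 4, SP28wk replicate 3 or SP28wk replicate 4). In SP28wk against LP 11 were called, and 2, 5 and 0 under the same settings and 8 to 56 with a library left out (56 without LP replicate 4, 30 without SP28wk replicate 1). The causes were not tested.

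Stat5b in SP12wk against LP turned positive without a filter (0.062), with added counts (0.099) and with the replicate block (0.23). Stat3 was −0.0098 in SP28wk against SP12wk with DESeq2 and 0.019 in SP28wk against LP with the block. Socs2 was 1.90 in SP28wk against SP12wk with added counts, where most of its rows repeat the same counts. With a library left out, the log2 fold change in PRL against SAL ran from −0.22 to 0.10 for Jak1, −0.21 to 0.55 for Stat5b and −0.70 to 0.41 for Cish. It ran from −0.61 to 0.51 for Stat3 and −1.72 to 1.71 for Stat5b in SP12wk against LP, from −0.038 to 0.23 for Stat3 and −0.88 to 0.19 for Socs2 in SP28wk against SP12wk, and from −0.43 to 0.055 for Ghr and −0.48 to 0.63 for Stat3 in SP28wk against LP. Prlr ran from 1.06 to 2.48. Socs3 could be tested in 6 of the 12 such fits, from −2.08 to −1.46. It had reads in 6 libraries, the number required, so each of these fits left out a library without a Socs3 read. This range therefore does not show how its value depends on any library that held its reads.

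Whether equal replicate numbers marked a shared source was left undecided, because counts this low could not exclude one. The correlation of deviations between equally numbered libraries ran from −0.145 to 0.195 for experiment 2 and from −0.080 to 0.168 for experiment 1, and 3 and 4 of 12 libraries correlated best with their own number. The replicate block gave log2 fold changes of 1.30 for Prlr and −1.31 for Socs3 and called neither. Over all genes in PRL against SAL it called 52, where the main fit called 0. Depth limits the members, 8 of which had at most 48 reads in experiment 2.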
